A study of Homo sapiens with 32 samples.

Results

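K-562 is an established human line from chronic myeloid leukemia in blast crisis. Its cells float singly in culture, have erythroid features and live on signals from the BCR-ABL fusion kinase. The comparison described here is between 2 sets of arrays from K-562 cells that had never been selected for drug resistance. The 4 arrays titled S1 to S4 form naive S and the 4 arrays titled K1 to K4 form naive K, so the comparison uses 8 of the 32 GeneChip arrays of the study. Every naive array carries the resistance label treatment-naive, and the growth text names RPMI medium with serum and antibiotics and neither imatinib nor nilotinib, both inhibitors of that kinase. What the letters S and K stand for is not given in the labels, so a difference between the sets and any difference in culture, RNA isolation or array run cannot be told apart. For comparison, the other 24 arrays come from 6 resistant lines with 4 technical replicate arrays each: 2 lines at 0.5 µM imatinib, 2 at 2 µM imatinib and 2 at 0.1 µM nilotinib, each reached by raising the drug step by step. The design text counts 8 controls and does not say whether the 4 arrays of a naive set share 1 culture or 1 RNA, so p-values here measure only the spread between arrays, which may be technical.

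Values are the deposited log2 intensities, so a difference of 1 is 2-fold. Of 14884 genes measured, 4895 had clear signal, meaning that their mean over the 8 naive arrays lay 2-fold or more above the overall median of 5.99, that is at 6.99 or higher. Genes just under this level were MEMO1, DDX11-AS1 and LINC01141, and genes just over it were CENPM, COLQ and SPRR2F. A gene is called where the adjusted p from limma, fitted to all 32 arrays with 1 mean per set, was under 0.05. The spread in this fit is thus pooled with that of the resistant lines. For genes of clear signal the median standard error was 0.113 in it, and 0.146 with only the 8 naive arrays.

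Identity markers of K-562 were checked first. Of 14 listed markers 7 were measured and 6 had clear signal, namely BCR, GATA1, KLF1, LMO2, HEMGN and MYB, while TAL1 lay under the level with means of 6.40 in naive S and 6.58 in naive K. BCR was not called, at 7.84 ± 0.18 (SD, n = 4) in naive S and 7.90 ± 0.13 in naive K (difference -0.06 ± 0.10, SE, limma adjusted p 0.741). Among markers of other cells, 0 of the 1 measured lymphoid, 1 of 4 granulocyte and monocyte (LYZ), 2 of 4 epithelial and fibroblast (EPCAM and KRT19) and 1 of 3 mast cell markers (KIT) had clear signal. The summed log2 level of the 4 granulocyte and monocyte markers ran from 24.26 to 24.95 on the naive S arrays and from 25.37 to 25.76 on the naive K arrays, without overlap. However, MPO, CD14 and S100A8 lay under clear signal, and for each of the 4 markers alone the sets overlapped. A longer granulocyte and monocyte list had 18 measured genes with a median difference, naive S minus naive K, of -0.118 log2. In that list S100A12 (0.34, without overlap), CSF3R (0.17) and LTF (0.13) were higher in naive S and not called. The epithelial and fibroblast sums overlapped, at 25.72 to 26.21 in naive S and 26.08 to 27.04 in naive K. So did the mast cell sums, at 18.78 to 19.66 and 18.5 to 20.06. The single lymphoid marker measured, CD2, stayed under clear signal at 6.33 to 6.70 in naive S and 6.78 to 6.95 in naive K. The part of such cells in the differences below was not tested.

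Immediate early genes are switched on within minutes of a growth factor or stress signal, without new protein being made. They encode transcription factors such as JUN and EGR1 and the feedback phosphatases that end the signal. Heat shock genes encode chaperones that hold or refold damaged proteins. Their common activator HSF1 binds heat shock elements in promoters. Matrix genes encode secreted proteins such as fibronectin, which cells use for adhesion.

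Among protein-coding genes of clear signal the widest differences between the naive sets were in JUN, 3.63-fold higher in naive K, and CHORDC1, 3.00-fold higher in naive K. FN1 was 2.03-fold higher in naive S. Inducible chaperones (HSPA1A, HSPA1B, HSPB1, HSPH1) were higher in naive K, whereas MYC, EGR1, SESN2, SOCS1, IGF1 and KIF23 were higher in naive S. Of 14 Cajal body RNA genes of clear signal, a family chosen after its values were seen, 11 were called higher in naive K. This is 78.6%, beside 7.07% of all genes of clear signal. The count was 9 without S2 and K1 and 7 with only the 8 naive arrays. In bulk RNA such as this, fewer cells that make a transcript and less transcript per cell cannot be told apart. Over all genes 1840 of 14884 (12.4%) were called, 962 higher in naive S and 878 higher in naive K. Without array S2 the count was 1126, without S2 and K1 it was 862, and with only the 8 naive arrays in the fit it was 219.

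Among the 4895 genes of clear signal, 629 (12.8%) were called higher in naive S and 346 (7.07%) higher in naive K. In 449 (9.17%) all naive S arrays lay above all naive K arrays, and in 248 (5.07%) all lay below. The split by direction moved with single arrays: the share of called genes that were higher in naive S was 64.5% in all arrays, 42.9% without K1, 42.3% without S2 and K1, and 77.0% without K3. Genes of clear signal called higher in naive S numbered 447 without S2, 322 without K1 and 229 without both, and those higher in naive K 221, 428 and 313. When only the 8 naive arrays entered the fit, 119 genes of clear signal (2.43%) were called, 71 higher in naive S and 48 higher in naive K. A clear 2-fold difference was rare, with 18 called genes (0.368%), 8 higher in naive S and 10 higher in naive K. Each of these 18 was also called with only the 8 naive arrays and in all 18 alternative settings run per gene. The 2-fold size held less well. Of the 18, 12 were again called at 2-fold with clear signal under array weights, 13 without S2, 14 without K1 and 15 without both. Of the genes nearest the 2-fold mark, MIR4740 (-0.97), SCARNA10 (-0.98) and SCARNA9 (-0.98) fell just under it, and F8A1 (1.00), SCARNA2 (-1.01) and MIR375 (-1.02) reached it.

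**Figure D1:**
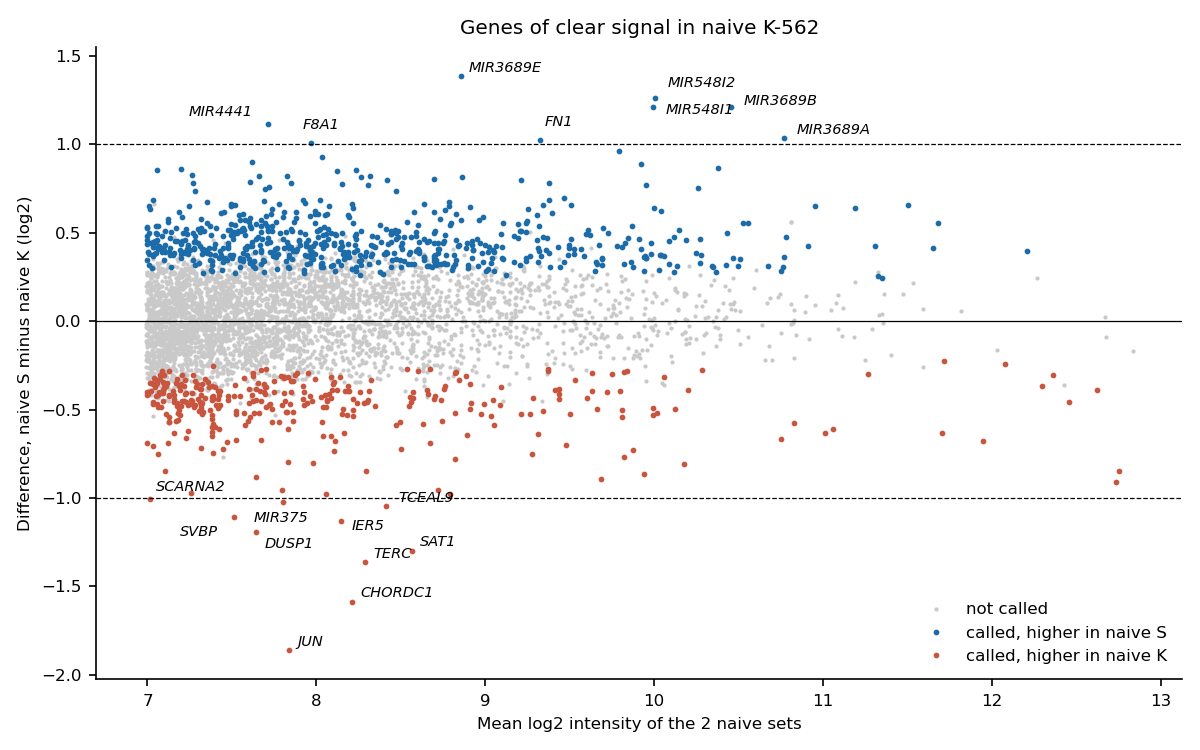
Difference between the naive sets (naive S minus naive K, log2, vertical axis) against the mean log2 intensity of both sets (horizontal axis) for the 4895 genes of clear signal. Blue and red points are genes called higher in naive S and in naive K, grey points were not called, dashed lines mark 2-fold, and the 18 called genes at or past 2-fold are named, with JUN lowest and MIR3689E highest.

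By the root mean square difference of set means over all genes, the naive sets lay nearer to each other than did the 2 lines of any resistance. It was 0.257 between naive S and naive K, against 0.312 between the lines at 0.5 µM imatinib, 0.534 between those at 2 µM imatinib and 0.477 between the nilotinib lines. In the same fit 2788 genes (18.7%), 4916 (33.0%) and 4101 (27.6%) were called between the lines of these 3 pairs. Among the genes of clear signal, 18 differed 2-fold or more between the naive sets, and 80, 461 and 248 between the lines. The median absolute difference over all genes separated the pairs less, at 0.162 for the naive sets, 0.163 for the lines at 0.5 µM imatinib, 0.202 for those at 2 µM and 0.19 for the nilotinib lines. No test of these distances was made, since each pair gives 1 value. For a typical gene of clear signal the naive sets differed by 0.176 (median of the absolute difference), and 95% of such genes differed by less than 0.525.

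Over all genes, spread within the naive sets was wider than in the resistant lines. The median SD was 0.186 in naive S and 0.193 in naive K, and it ran from 0.123 to 0.180 in the resistant lines. For genes of clear signal it was 0.151 in naive S, 0.216 in naive K and 0.09 to 0.156 in the lines. There naive S lay within the range of the lines and naive K above it. The pooled fit thus used a smaller spread for such genes than naive K had. Arrays S2 and K1 stood apart. S2 had the narrowest range of values (SD over genes 1.557, against 1.645 to 1.718 on the other naive arrays), and K1 had the lowest score on the main axis of variation between arrays of a set (-47.1, against -27.7 to -8.1). Correlations between a naive S and a naive K array ran from 0.919 to 0.975 across genes, and from 0.967 to 0.975 without these 2 arrays. Naive arrays had slightly higher medians (6.042 to 6.106) than resistant arrays (5.854 to 6.037).

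Immediate early genes did not move as a block. Of 53 listed genes 35 were measured and 16 had clear signal. JUN, DUSP1 and IER5 were called higher in naive K, MYC and EGR1 were called higher in naive S, and 11 were not called. The 3 higher in naive K are 18.8% of the 16, beside 7.07% of all genes of clear signal, and the 2 higher in naive S are 12.5%, beside 12.8%. The median difference over the 16 was -0.09, beside 0.045 over all genes of clear signal. The counts were the same without S2, without K1, without both and with only the 8 naive arrays.

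JUN, a subunit of the transcription factor AP-1, read 6.97, 6.77, 7.09 and 6.82 on the naive S arrays and 8.56, 8.71, 9.08 and 8.75 on the naive K arrays. The lowest naive K array lay well above the highest naive S array. The difference was -1.86 ± 0.12 (95% CI -2.11 to -1.62, limma adjusted p 3.02e-12), and it stayed between -2.03 and -1.76 in the alternatives. Means of the resistant lines ran from 7.28 to 8.84, so naive S lay below all 6 lines and naive K lay within their range, near its top.

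DUSP1, a phosphatase that turns off MAP kinases, read 7.03, 6.74, 7.36 and 7.08 in naive S and 7.85, 8.16, 8.64 and 8.30 in naive K. The sets did not overlap, and the difference was -1.19 ± 0.13 (limma adjusted p 3.43e-07). The 6 line means, 7.54 to 8.00, fell between the 2 naive means of 7.05 and 8.24. IER5, an immediate early response gene that acts with HSF1, read 7.87, 7.58, 7.75 and 7.13 in naive S and 8.26, 8.61, 8.95 and 9.03 in naive K (difference -1.13 ± 0.17, limma adjusted p 4.86e-05).

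MYC, which drives growth and cell division, moved the other way. It read 9.73, 9.88, 9.83 and 9.64 in naive S and 8.48, 8.98, 9.51 and 8.99 in naive K. The naive S arrays were close together and K1 was lowest of all. The difference was 0.78 ± 0.13 (limma adjusted p 1.85e-04) and ranged from 0.57 to 0.95 in the alternatives. EGR1, a zinc finger factor induced by growth signals, read 9.18, 9.19, 9.46 and 9.11 in naive S and 8.19, 8.68, 8.86 and 8.63 in naive K (0.64 ± 0.11, limma adjusted p 3.30e-04). A dimmer feature of EGR1 differed by only -0.04 ± 0.12, and with the mean of both features the difference was 0.30, so the features of this gene disagree.

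The relatives of JUN in AP-1 were not called. JUNB differed by 0.04 ± 0.14 and JUND by -0.05 ± 0.11, and both sets overlapped in each. FOS (0.07), FOSB (-0.12) and ATF3 (0.11) lay below clear signal and were not called, although a dimmer feature of FOS differed by -0.39 ± 0.10 (limma adjusted p 0.011). Also not called were IER2 (0.17), IER3 (0.08), the Krüppel-like factors KLF2 (-0.18) and KLF6 (-0.19), the phosphatase DUSP2 (-0.16), SRF (0.18), the survival gene MCL1 (-0.12), the signalling inhibitor SPRY4 (0.28) and the small GTPase gene RHOB (-0.17). Among the 19 dimmer members, KLF4 (-0.50) and DUSP4 (-0.49) were called higher in naive K in limma. Neither was called with only the 8 naive arrays (limma adjusted p 0.168 and 0.111). For comparison, 12.4% of all genes were called in either direction, and 865 called genes lay under clear signal.

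**Figure D2:**
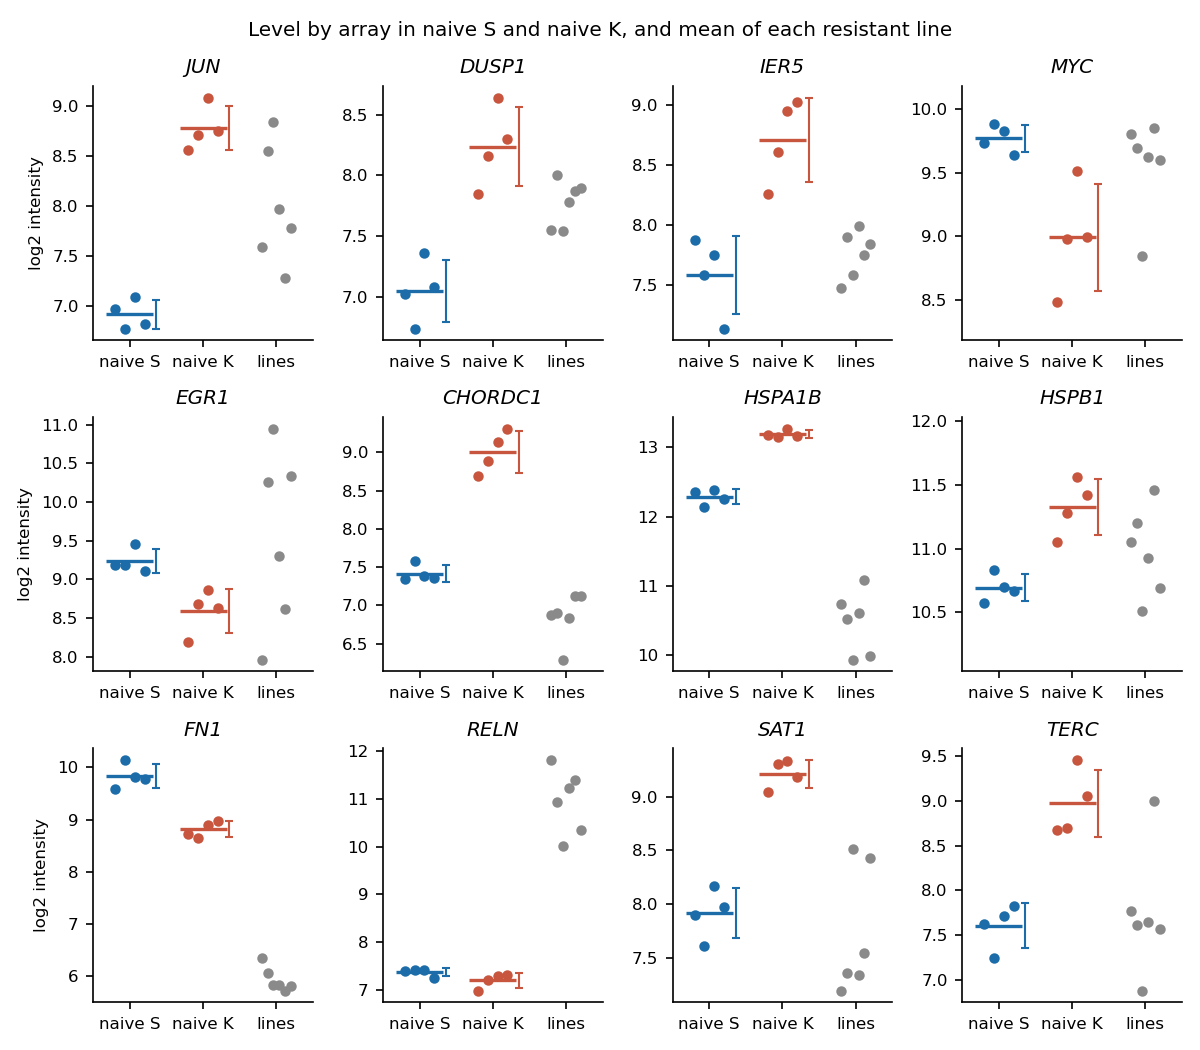
Log2 intensity of 12 genes on each array: blue points are the 4 naive S arrays, red points the 4 naive K arrays, and grey points the means of the 6 resistant lines. Lines are set means and bars beside them are ± 1 SD (n = 4); vertical scales differ between panels and each spans at least 2 log2 units. JUN, DUSP1, IER5, CHORDC1, HSPA1B, HSPB1, SAT1 and TERC are higher in naive K, MYC, EGR1 and FN1 are higher in naive S, and the sets overlap for RELN.

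Of the heat shock list, 45 genes were listed, 20 measured and 17 of clear signal. In limma, 6 of these were called higher in naive K, 0 higher in naive S (1 at an unadjusted p under 0.05) and 11 were not called. The share called higher in naive K was 35.3%, beside 7.07% of all genes of clear signal, and the median difference was -0.13. With the near-identical pair HSPA1A and HSPA1B as 1 observation, 5 of 16 (31.2%) were called. Without K1 the count was 7, and with only the 8 naive arrays it was 5, since HSPH1 was then not called.

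CHORDC1, a partner of the chaperone HSP90, read 7.35, 7.58, 7.38 and 7.36 in naive S and 8.69, 8.88, 9.14 and 9.31 in naive K. Every naive K array stood at least 1 log2 unit above every naive S array. The difference was -1.58 ± 0.14 (95% CI -1.88 to -1.29, limma adjusted p 1.07e-08). Resistant line means of 6.29 to 7.12 lay below both naive sets.

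HSPA1A and HSPA1B encode the inducible HSP70 chaperone. Their copies are nearly identical, so their features may share signal and the 2 genes count as 1 observation. HSPA1B read 12.35, 12.14, 12.38 and 12.26 in naive S and 13.18, 13.15, 13.27 and 13.16 in naive K. Both sets were tight, and the difference was -0.91 ± 0.08 (1.88-fold, limma adjusted p 1.07e-08). HSPA1A differed by -0.85 ± 0.09, and the 10 features of the pair ran from -1.03 to -0.85. Line means of HSPA1B, 9.93 to 11.09, were below both naive sets.

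HSPB1, the small heat shock protein HSP27, read 10.57, 10.83, 10.70 and 10.67 in naive S and 11.05, 11.28, 11.56 and 11.42 in naive K (-0.63 ± 0.10, limma adjusted p 1.28e-04). UBB, a polyubiquitin gene, differed by -0.71 ± 0.12, and HSPH1, the HSP110 exchange factor for HSP70, by -0.48 ± 0.09. The activator HSF1 itself had means of 7.52 in both sets (0.00 ± 0.13). Other cofactors and constitutive chaperones were not called: HSPA4 (-0.18), HSPA4L (0.17), HSPA14 (0.25), HSPA1L (-0.06), BAG3 (-0.32), STIP1 (-0.13), PTGES3 (-0.03) and CDC37 (0.10). The mitochondrial chaperones HSPD1 (-0.13, limma adjusted p 0.363) and HSPA9 (0.24, limma adjusted p 0.0516) were not called either. For HSPA9 the sets did not overlap, with naive S the higher, and it was called in 6 of 18 alternatives. BAG3 was called in 4 of them, as was SPRY4 among the immediate early genes.

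**Figure D3:**
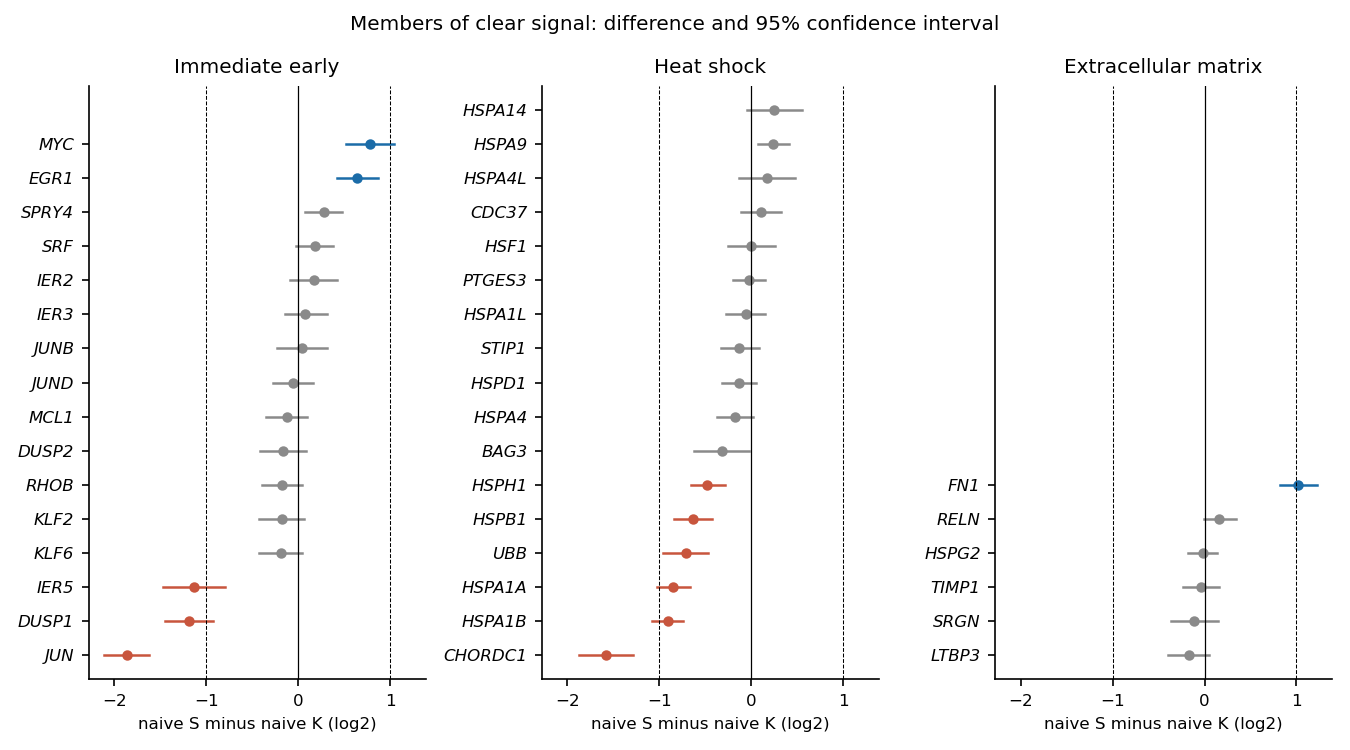
Difference between the naive sets (naive S minus naive K, log2) with its 95% confidence interval from limma for every member of clear signal in the immediate early, heat shock and matrix lists. Red marks genes called higher in naive K, blue genes called higher in naive S, grey genes not called, and dashed lines mark 2-fold; CHORDC1 and JUN lie farthest to the left and FN1 farthest to the right.

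Promoter sequence was read for the called members of these 2 lists, because they include the genes that differ most between the naive sets. The 250 bases before the annotated start are given for JUN, CHORDC1, HSPA1A and HSPB1 from RefSeq (GRCh38.p14), 5′ to 3′ on the gene's strand, with capitals marking each heat shock element of the form GAANNTTC, a motif that reads the same on both strands. The windows are chr1:58784048-58784297 on the minus strand, chr11:90223050-90223299 on the minus strand, chr6:31815293-31815542 on the plus strand and chr7:76302423-76302672 on the plus strand.
JUN: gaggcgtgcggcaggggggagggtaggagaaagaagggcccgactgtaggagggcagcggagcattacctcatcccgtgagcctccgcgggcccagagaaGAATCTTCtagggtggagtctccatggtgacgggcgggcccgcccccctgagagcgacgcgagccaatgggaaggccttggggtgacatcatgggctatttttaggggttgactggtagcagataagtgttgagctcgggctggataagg
CHORDC1: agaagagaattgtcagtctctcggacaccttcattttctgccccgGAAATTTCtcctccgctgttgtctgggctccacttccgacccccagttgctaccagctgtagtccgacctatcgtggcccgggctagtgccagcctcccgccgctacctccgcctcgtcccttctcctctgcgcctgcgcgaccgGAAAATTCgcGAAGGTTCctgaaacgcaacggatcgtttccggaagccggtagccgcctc
HSPA1A: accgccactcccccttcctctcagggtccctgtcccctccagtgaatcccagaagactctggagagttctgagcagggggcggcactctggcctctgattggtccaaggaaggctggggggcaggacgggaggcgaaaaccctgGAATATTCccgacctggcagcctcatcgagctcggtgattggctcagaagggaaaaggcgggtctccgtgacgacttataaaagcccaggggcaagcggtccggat
HSPB1: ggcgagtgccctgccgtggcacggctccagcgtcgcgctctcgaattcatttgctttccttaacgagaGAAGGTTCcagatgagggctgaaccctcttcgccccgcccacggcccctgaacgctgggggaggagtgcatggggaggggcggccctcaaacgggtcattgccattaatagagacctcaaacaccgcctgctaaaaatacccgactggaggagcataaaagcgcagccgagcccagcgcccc
CHORDC1 held 3 such elements, with first bases at -205, -60 and -50 from the start, while HSPA1A held 1 at -106, HSPB1 1 at -182 and JUN 1 at -150. HSPA1B held 1 at -105. Of the 6 called heat shock genes 4 held the element in the 300-base promoter window, and HSPH1 and UBB held none; with HSPA1A and HSPA1B as 1 observation it is 3 of 5. Of the called immediate early genes with a promoter sequence, JUN and IER5 held it and DUSP1 and EGR1 did not. Of all 35116 promoters of this kind, 6.77% held it. The cyclic AMP element TGACGTCA, found in 1.85% of all promoters, occurred at -125 in DUSP1. A CArG box, the site known for SRF and found in 1.29% of all promoters, occurred at -105 and -83 in EGR1. The AP-1 motif TGANTCA (7.71% of promoters) occurred in 0 of these promoters. All motifs were searched on both strands, and a match describes the letters in this window only. Promoters of list members that were not called were not searched. Whether a motif goes with the difference between the sets was thus not tested.

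Most matrix genes lay under clear signal. Of 69 listed genes 33 were measured and 6 had clear signal. In limma FN1 was called higher in naive S, 0 were called higher in naive K (0 also at an unadjusted p under 0.05) and 5 were not called. FN1 alone is 16.7% of the 6, near the 12.8% of all genes of clear signal called higher in naive S. The median difference of the 6 was -0.03.

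FN1, fibronectin, read 9.59, 10.15, 9.82 and 9.78 on the naive S arrays and 8.72, 8.65, 8.90 and 8.98 on the naive K arrays. The sets did not overlap. The difference was 1.02 ± 0.10 (95% CI 0.82 to 1.22, limma adjusted p 2.59e-08), and the range over alternatives was 0.89 to 1.10. Both naive sets lay far above the resistant lines, whose means ran from 5.72 to 6.35.

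RELN, the secreted glycoprotein reelin, read 7.40, 7.41, 7.41 and 7.24 in naive S and 6.98, 7.20, 7.30 and 7.32 in naive K. The sets overlapped, and the difference of 0.16 ± 0.09 was not called (limma adjusted p 0.217). Resistant line means were 10.02 to 11.82, so the naive sets differed little beside their distance from the lines. The protease inhibitor TIMP1 (-0.04 ± 0.10), the basement membrane proteoglycan HSPG2 (-0.02 ± 0.08), the granule proteoglycan SRGN (-0.11 ± 0.13) and the latent TGF-beta binding protein LTBP3 (-0.17 ± 0.11) were not called. Of the 27 matrix genes under clear signal, HAPLN1 (-0.59) and CD44 (-0.38) were called higher in naive K. Over all genes 12.4% were called in either direction, and 865 called genes lay under clear signal. With only the 8 naive arrays HAPLN1 kept its call (limma adjusted p 0.0286) and CD44 did not (limma adjusted p 0.192).

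Other genes with a 2-fold difference were mixed in function. SAT1, the enzyme that starts polyamine breakdown, read 7.90, 7.61, 8.17 and 7.97 in naive S and 9.04, 9.30, 9.33 and 9.18 in naive K (-1.30 ± 0.13, limma adjusted p 6.59e-08). Naive K also lay above all line means for this gene, 7.19 to 8.51. SVBP, a partner of the vasohibins, differed by -1.11 ± 0.14 and TCEAL9 by -1.05 ± 0.12. For both genes naive S lay below every resistant line, at 6.96 against line means of 7.65 to 8.55 for SVBP and at 7.89 against 8.90 to 9.51 for TCEAL9. F8A1 differed by 1.00 ± 0.20 on its most intense feature, while its other features differed by 0.03 or 0.36 and were not called. With the mean of all its features it differed by 0.30.

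Noncoding RNA genes made up 9 of the 18. TERC, the RNA template of telomerase, read 7.63, 7.25, 7.72 and 7.83 in naive S and 8.67, 8.70, 9.46 and 9.05 in naive K (-1.36 ± 0.16, limma adjusted p 1.06e-06). The sets did not overlap. SCARNA2 (-1.01 ± 0.15), SCARNA9 (-0.98 ± 0.20) and SCARNA10 (-0.98 ± 0.13), which encode RNAs of the Cajal body that guide chemical marking of spliceosomal RNA, were also higher in naive K.

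The SCARNA genes were then examined by name as a family, a choice made after their values were seen. Of 23 measured, 14 had clear signal and 11 of these were called higher in naive K in limma, beside 7.07% of all genes of clear signal called higher in naive K. The exceptions were SCARNA11 (-0.52), SCARNA12 (-0.30) and SCARNA17 (0.06). The mean of the 14 was 8.28, 7.77, 8.25 and 8.08 on the naive S arrays and 8.61, 8.66, 8.92 and 8.83 on the naive K arrays. S2 was the lowest array. Without it 10 of the 14 were called, without S2 and K1 9 were, and with only the 8 naive arrays 7 were. RMRP, the RNA of the mitochondrial RNA processing ribonuclease, moved the same way, with 11.61 ± 0.46 (SD) in naive S, 12.29 ± 0.09 in naive K and no overlap (-0.68, limma adjusted p 0.00187, 0.0789 with only the 8 naive arrays). Of 8 SNAR genes, which are near copies of one another and may share signal, 6 were called higher in naive K, 2 without S2 and 2 with only the 8 naive arrays.

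Among microRNA genes of clear signal the largest difference toward naive S was in a cluster of related genes on chromosome 9, the MIR3689 genes. They and MIR375 are shown by their mature sequences from RefSeq (GRCh38.p14), 5′ to 3′, with the seed (bases 2 to 8) in capitals, because several of them share a seed or a whole mature sequence.
hsa-miR-3689a-5p: uGUGAUAUcaugguuccuggga
hsa-miR-3689b-5p: uGUGAUAUcaugguuccuggga
hsa-miR-3689e: uGUGAUAUcaugguuccuggga
hsa-miR-3689f: uGUGAUAUcgugcuuccuggga
hsa-miR-3689a-3p: cUGGGAGGugugauaucguggu
hsa-miR-3689b-3p: cUGGGAGGugugauauuguggu
hsa-miR-3689d: gGGAGGUGugaucucacacucg
hsa-miR-375-3p: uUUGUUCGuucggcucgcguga
The a-5p, b-5p, e and f forms share the seed GUGAUAU, a-3p and b-3p share UGGGAGG, and the d form has GGAGGUG. The mature a-5p, b-5p and e sequences are the same over their whole 22 bases. The hairpins differ more: among those of MIR3689A, B, D1, D2 and E, aligned bases were identical over 42.6% (B with D1) to 91.2% (D1 with D2) of the longer hairpin. The array features read labelled RNA assigned to the microRNA gene and were not shown to read the mature form.

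MIR3689E read 9.59, 9.79, 9.43 and 9.37 in naive S and 8.09, 8.39, 8.29 and 7.87 in naive K (1.39 ± 0.19, limma adjusted p 2.00e-05). MIR3689B differed by 1.21 ± 0.21, MIR3689A by 1.03 ± 0.18, MIR3689D2 by 0.89 ± 0.18 and MIR3689D1 by 0.55 ± 0.13, all called, and in each the sets did not overlap. MIR3689F differed by 0.17 ± 0.17 and was not called. Their common mean was 10.32, 10.50, 10.22 and 10.16 in naive S and 9.63, 9.53, 9.23 and 9.31 in naive K, and S2 was the highest array here. Whether their features share signal was not tested. MIR548I1 (1.21 ± 0.27), MIR548I2 (1.26 ± 0.26) and MIR4441 (1.11 ± 0.22) were also higher in naive S. MIR548I1 and MIR548I2 had nearly the same values, at 10.51 to 10.73 and 10.54 to 10.8 in naive S. Their features may thus share signal, although both genes count among the 8 at 2-fold in naive S. A dimmer feature of MIR548I1 differed by 0.78 ± 0.30 and was not called (limma adjusted p 0.0836). For MIR548I2 a dimmer feature differed by 0.85 ± 0.26. MIR375, a microRNA best known from pancreatic islets, was higher in naive K, at 7.44, 7.48, 6.94 and 7.31 in naive S against 8.94, 8.05, 7.92 and 8.34 (-1.02 ± 0.16, limma adjusted p 1.36e-04). Over all 185 microRNA genes of clear signal, 17 (9.19%) were called higher in naive S and 31 (16.8%) higher in naive K, beside 12.8% and 7.07% of all genes of clear signal. The balance turned with the arrays used: the counts were 14 and 11 without K1 and also without S2, 14 and 8 without both, and 10 and 3 with only the 8 naive arrays.

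**Figure D4:**
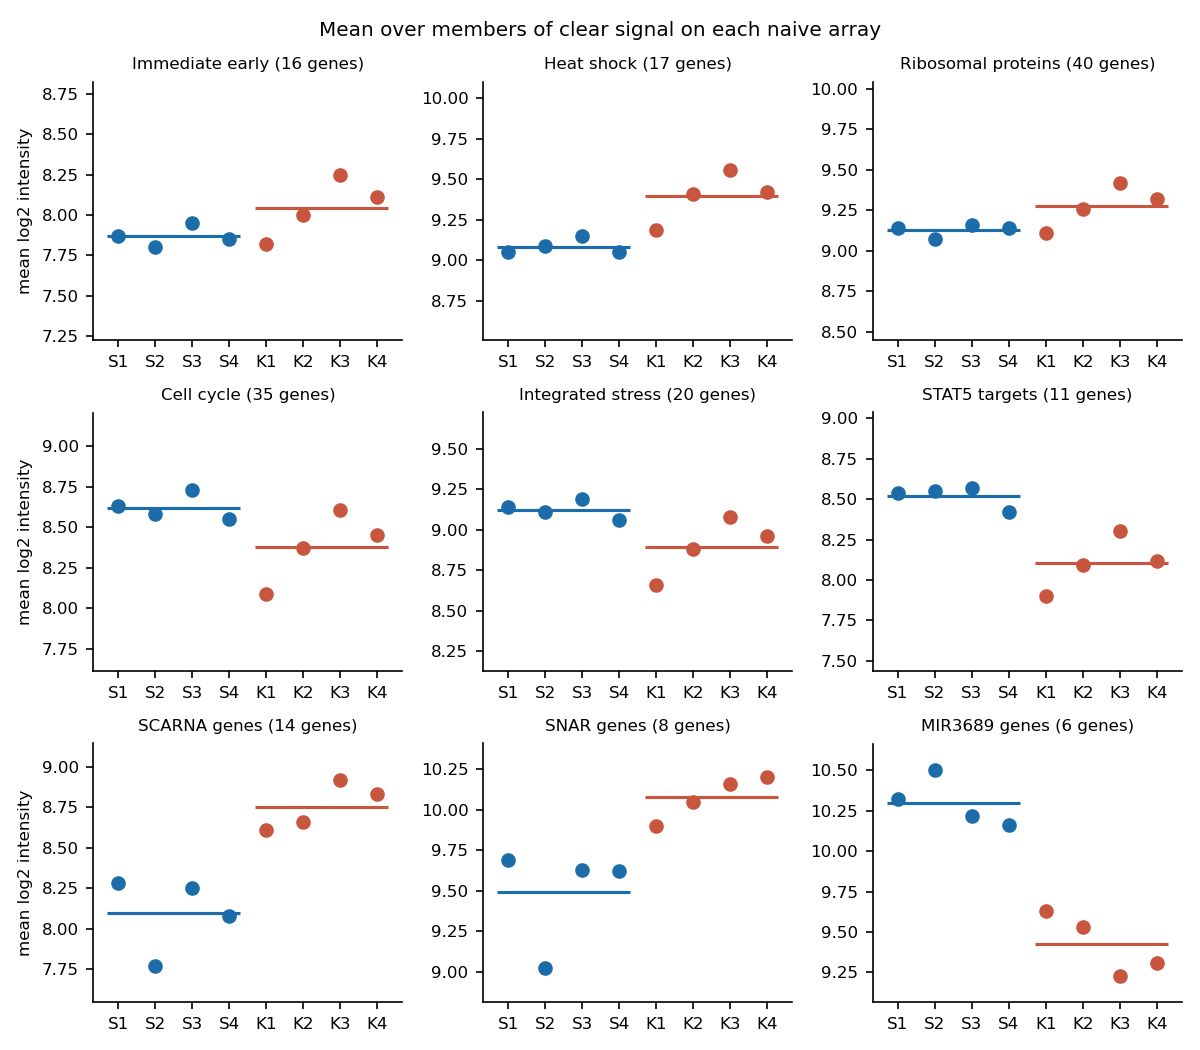
Mean log2 intensity over the members of clear signal of 6 gene lists and 3 gene families on each of the 8 naive arrays; lines are set means, and every panel spans 1.6 log2 units. The SCARNA and SNAR means are lowest on S2, and the cell cycle, integrated stress and STAT5 target means are lowest on K1.

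Several lists outside these groups had most of their called members on 1 side. Of 11 STAT5 target genes of clear signal, which read out signalling below the BCR-ABL kinase, 6 (54.5%) were called higher in naive S in limma, beside 12.8% of all genes of clear signal, and 0 higher in naive K (0 also at an unadjusted p under 0.05), with a median of 0.36. IGF1, a growth factor, read 8.05, 8.22, 8.34 and 7.67 in naive S and 6.87, 7.15, 7.36 and 7.29 in naive K (0.90 ± 0.12, limma adjusted p 1.39e-05). SOCS1, a feedback inhibitor of cytokine signalling, differed by 0.79 ± 0.15 without overlap, PIM2, a survival kinase, by 0.67 ± 0.12, and CCND2, a cyclin, by 0.41 ± 0.12. MYC and BCL2L1 (0.28 ± 0.10) complete the 6, while PIM1 (0.24), CISH (0.36) and SOCS2 (0.22) were not called. The call of BCL2L1 was marginal, with overlapping arrays and a limma adjusted p of 0.049982, or 0.304 with only the 8 naive arrays. Among 6 dimmer members, CCND1 (-0.48), CCND3 (-0.49) and DUSP4 were called in the other direction, beside 12.4% of all genes called in either direction. None of these dimmer genes was called with only the 8 naive arrays. Without K1, without S2 and without both, 4 of the 11 were called, and with only the 8 naive arrays 3 were.

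Of 20 integrated stress genes of clear signal, 7 (35.0%, beside 12.8% of all) were called higher in naive S in limma and 0 higher in naive K (0 also at an unadjusted p under 0.05), with a median of 0.24. SESN2, a sestrin that restrains mTORC1, read 9.14, 9.38, 9.35 and 9.21 in naive S and 7.95, 8.57, 8.62 and 8.70 in naive K (0.81 ± 0.11, limma adjusted p 2.64e-05). The serine synthesis enzymes PSAT1 (0.50 ± 0.13), PHGDH (0.44 ± 0.09) and PSPH (0.40 ± 0.10) and the tRNA synthetases WARS1 (0.31) and GARS1 (0.28) were among the 7. The other 13 were not called, among them ATF4 (-0.09), ASNS (0.14), TRIB3 (0.36), GDF15 (-0.10), AARS1 (0.06) and SARS1 (0.02). With only the 8 naive arrays 1 of the 20 was called, and without S2 and K1 2 were. In limma 0 of 7 endoplasmic reticulum stress genes were called, and 1 had an unadjusted p under 0.05.

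Of 35 cell cycle genes of clear signal, 14 were called higher in naive S in limma and 0 higher in naive K (1 at an unadjusted p under 0.05), beside 12.8% of all genes of clear signal. Their median difference was 0.24. KIF23, a kinesin of the dividing cell's midzone, read 8.60, 8.89, 8.73 and 8.47 in naive S and 7.43, 7.96, 8.05 and 7.98 in naive K (0.82 ± 0.11, limma adjusted p 2.00e-05). KIF11 (0.55 ± 0.10), CCNE1 (0.55 ± 0.13), PCNA (0.50 ± 0.13), TYMS (0.48), CDC6 (0.49) and the MCM3, MCM4, MCM6 and MCM7 helicase subunits (0.29 to 0.41) were also called. Among 5 dimmer members CCNE2 (0.50) was called the same way, and CCND1 and CCND3 in the other direction. None of these dimmer genes was called with only the 8 naive arrays. The list mean was 8.09 on K1 against 8.37 to 8.61 on the other naive K arrays. Without K1 7 were called, while over all genes of clear signal the calls higher in naive S went from 629 to 322. Without S2 and K1 3 of the list were called, and with only the 8 naive arrays 1. RBL1, a retinoblastoma family member outside the list, differed by 0.93 ± 0.11, also toward naive S.

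The erythroid genes that were called were all higher in naive K. Of 12 of clear signal, 3 were called higher in naive K in limma, beside 7.07% of all genes of clear signal, and 0 higher in naive S (1 at an unadjusted p under 0.05): the heme breakdown enzyme BLVRB (-0.75 ± 0.12), the heme synthesis enzyme CPOX (-0.46 ± 0.13) and the factor GATA1 (-0.28 ± 0.09). GATA1 had a limma adjusted p of 0.0456 and lost the call in 10 of 18 alternatives, and CPOX lost it in 5. With only the 8 naive arrays BLVRB alone was called, and without S2 and K1 5 members were. HEMGN, an erythroid nuclear protein, read 6.78, 6.71, 6.66 and 6.61 in naive S and 7.24, 7.49, 7.69 and 7.34 in naive K (-0.75 ± 0.10, limma adjusted p 8.97e-06). MYB (0.22), KLF1 (-0.22) and LMO2 (-0.26) were not called.

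Ribosomal protein genes had a small median difference. Of 40 of clear signal, 9 (22.5%, beside 7.07% of all) were called higher in naive K in limma and 0 higher in naive S (1 at an unadjusted p under 0.05), with a median of -0.14, and with only the 8 naive arrays 1 was called. RPS19 read 10.63, 10.50, 10.54 and 10.49 in naive S and 10.82, 11.18, 11.29 and 11.18 in naive K (-0.58 ± 0.12, limma adjusted p 0.00217). RPL41 differed by -0.46 ± 0.09 on its most intense feature, but 3 of its other features differed by 0.33 to 0.62 and the mean of all its features differed by 0.11.

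Sterol and lipid genes did not move one way, and their calls were near the shares of all genes of clear signal. Of 12 of clear signal, 2 (16.7%, beside 12.8% of all) were called higher in naive S. In naive K 1 (8.33%, beside 7.07% of all) was called higher. SQLE, an enzyme of cholesterol synthesis, was higher in naive K (-0.70 ± 0.10), while ACACA, which makes malonyl-CoA for fatty acids (0.52 ± 0.11), and the sterol sensor partner INSIG1 (0.37 ± 0.11) were higher in naive S. INSIG1 lost the call in 9 of 18 alternatives, and ACACA lost it with only the 8 naive arrays. In the hypoxia and glycolysis list EGLN1 (0.61 ± 0.10), PGAM1 (0.66 ± 0.13) and ERO1A (0.46 ± 0.09) were called higher in naive S, of which EGLN1 alone was called with only the 8 naive arrays. These are 3 of 11 members of clear signal (27.3%), beside 12.8% of all genes of clear signal. Among 9 dimmer members of this list LDHA (0.25) was called higher in naive S, and TPI1 (-0.61) and MXI1 (-0.43) higher in naive K. None of these dimmer genes was called with only the 8 naive arrays, and over all genes 12.4% were called. Of 6 glucose-sensing genes of clear signal SESN2 was called higher in naive S (16.7%, beside 12.8% of all), while TXNIP (-0.29), ARRDC3 (0.09) and DDIT4 (0.10) were not called. ISG15, an interferon-induced ubiquitin-like protein, was the single called gene among the 6 interferon genes of clear signal (-0.65 ± 0.11). This is 16.7%, beside 7.07% of all genes of clear signal called higher in naive K. Of the 30 measured interferon genes 24 were dimmer, and 2 of these were also called, RSAD2 higher in naive S (0.59) and HERC6 higher in naive K (-0.41). HERC6 was not called with only the 8 naive arrays. In limma 0 of 6 housekeeping genes were called and 2 had an unadjusted p under 0.05, the widest being PPIA (0.28 ± 0.11).

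**Figure D5:**
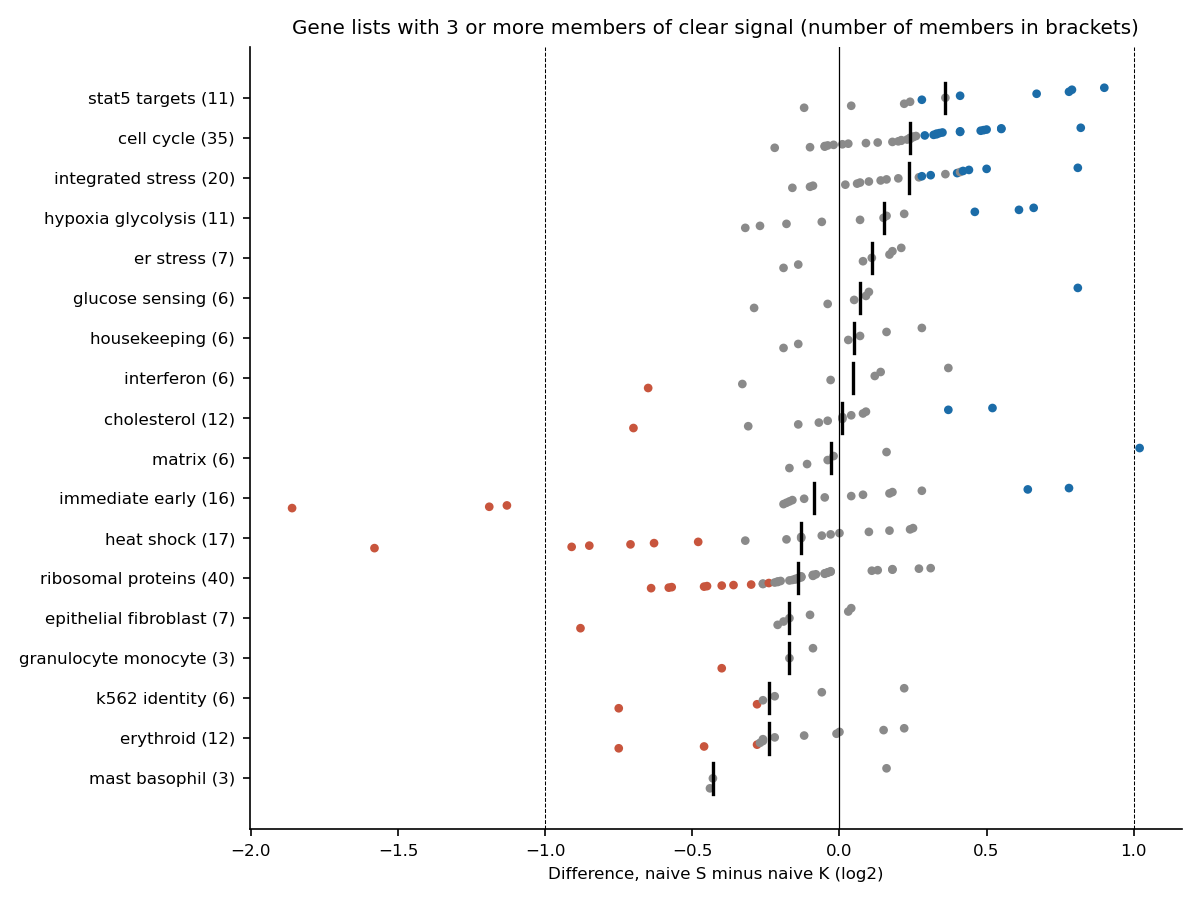
Difference between the naive sets (naive S minus naive K, log2) for each member of clear signal in the 18 gene lists with 3 or more such members, ordered by the list median (black bar). Red and blue points were called higher in naive K and in naive S, grey points were not called, and dashed lines mark 2-fold; STAT5 targets have the highest median (0.36), and mast cell and basophil genes the lowest (-0.43, 3 members, 0 called).

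Among lineage markers of other cells, LYZ, lysozyme, was called higher in naive K (-0.40 ± 0.13, limma adjusted p 0.0436) and lost the call in 11 of 18 alternatives. KRT19, a keratin, differed by -0.88 ± 0.20 (limma adjusted p 0.0045), from 6.96 to 7.69 in naive S and from 7.60 to 8.64 in naive K, so the arrays overlapped. KIT, a receptor kinase that imatinib also inhibits, differed by -0.43 ± 0.17 and was not called (limma adjusted p 0.102). In limma 1 of 3 granulocyte and monocyte genes of clear signal (33.3%) was called higher in naive K. Of 7 epithelial and fibroblast genes 1 was (14.3%), beside 7.07% of all genes of clear signal. Each of these counts rests on 1 gene. Of the 3 mast cell and basophil genes 0 were called (2 at an unadjusted p under 0.05), and the single genes of clear signal in the megakaryocytic and lymphoid lists, PF4 (-0.29) and CD7 (-0.04), were not called. Under clear signal, PPBP (0.90) and CD36 (0.44) of the megakaryocytic list were called higher in naive S, and GFI1B (-0.42) and FLI1 (-0.39) of that list, CSF1R (-0.48), CD2 (-0.37) and ENPP3 (-0.57) higher in naive K. Members under clear signal numbered 16 megakaryocytic, 15 granulocyte and monocyte, 15 lymphoid and 8 mast cell and basophil. Over all genes 12.4% were called in either direction. Of the dimmer genes named here, PPBP alone was called with only the 8 naive arrays (limma adjusted p 0.0495).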

How the data were processed

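Whole-transcript GeneChip arrays were read in 32 samples of K-562, labelled from 100 ng of RNA per array. The deposited values are log2 summarised intensities per array feature; the authors used Transcriptome Analysis Console 4.0 per the submitters' processing notes, their normalization is not stated there (not given in the sources used here), and base 2 was inferred from the range, which runs from 1.24 to 14.19. Neither background values nor detection calls entered, and precision is limited by how many arrays there are.

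Of 53617 features, 16098 carried 1 gene symbol in the platform annotation (all matched by gene identifier to RefSeq, GRCh38.p14), 0 carried several and 37519 were unnamed here. A gene was represented by its feature of highest mean over the 32 arrays (779 genes had several), which left 14884 genes. Using limma 3.58.1 in R 4.3.3, lmFit and eBayes were fitted to the 32 arrays with 1 mean per set, with Benjamini-Hochberg adjustment of p-values over the 14884 genes and a threshold of 0.05. The procedure was tested on simulated data. A ± after a difference is the standard error and a ± after a mean is the SD of 4 arrays.

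Array numbers did not pair the samples: deviations of arrays with the same number correlated at r between -0.001 and 0.178, and of arrays with other numbers at -0.156 to 0.147.

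Named genes were, among called genes of clear signal without overlap of the sets, the 12 with the largest difference in each direction, from each gene list the 4 members of clear signal with the largest difference, every such member of the immediate early, heat shock and matrix lists, and the K-562 identity genes. Gene families (SCARNA, SNAR, MIR3689, MIR548) and a few other genes, among them list members under clear signal, RMRP, KLF4, DUSP4, HAPLN1, CD44, WARS1, GARS1, PSPH, TYMS, CDC6, the MCM genes, CISH, PIM1, SOCS2, BCL2L1, CCND1, CCND2, CCND3, FOS, FOSB and ATF3, were named after their values were seen. The members and lists were chosen with earlier results of these data known, so no list was tested as a whole. Alternatives changed the normalization, the features used, the filter, the variance model, the arrays in the fit and the level of clear signal.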

Additional observations from a re-analysis of the deposited data

Results flagged for a closer look

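In 288 sets of 4 arrays (the named genes and the further genes tabulated with them, in each naive set), 24 had 1 array far from the other 3 for its gene by Dixon's criterion at the 95% level; chance alone gives about 1 in 20 such sets. Of these arrays 10 were S2, 7 were K1, 5 were S4, 1 was S1 and 1 was S3. K2, K3 and K4 had 0.

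On S2 the high values were CHORDC1 at 7.58, F8A1 at 9.05, PIM2 at 9.44 and KLF1 at 8.18, and the low ones were MSMO1 at 7.12, PCNA at 8.43, GATA1 at 9.08, RPS18 at 8.30, DUSP2 at 7.67 and SCARNA5 at 7.69. On K1 KRT18 stood high at 10.1, while KIF23 at 7.43, ERO1A at 8.01, IFITM1 at 10.51, RHOB at 7.45, HSPA4 at 9.52 and CDC37 at 8.71 stood low. S4 was low for RELN at 7.24, SEL1L at 8.65, FCN1 at 7.02 and DCN at 4.11, and high for KLF2 at 7.13. LYZ was low on S1 at 7.29 and IER3 high on S3 at 8.28. For CHORDC1 the high S2 value still lay below every naive K array, and for KIF23 the low K1 value widened a difference that was called in every alternative run for it.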

How the results depend on the processing

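The direction of all 58 called named genes held in the 18 alternatives, except RPL41, which turned to 0.107 with the mean of all its features. All calls held for 39 of the 58, and 19 were lost with only the 8 naive arrays. Of 59 named genes not called, 18 gained a call in 1 or more alternatives, 14 with the technical axis (the leading component of deviations from set means) taken out and 9 with quantile normalization. The 1840 called genes became 219 with only the 8 naive arrays, 1072 with array weights, 862 without S2 and K1 (chosen after seeing the data), 2871 once that axis was taken out, 5179 with every array feature, and 1126 (without S2) to 2127 (without K3) leaving out 1 array. The 41 at 2-fold became 22 without the dimmest 40% of genes, 26 with array weights and 470 with every feature. The 975 of clear signal became 119 with only the 8 naive arrays, 1531 with quantile normalization, 1643 with the technical axis out, 2565 with every feature, 542 without S2 and K1, 1526 with the level set at the overall median, and 668 to 1215 leaving out 1 array. The 18 at 2-fold became 13 with array weights, 24 without S1 and 227 with every feature. The root mean square distance of 0.257 became 0.272 with quantile normalization, 0.239 without S2 and K1, 0.277 over genes of clear signal and 0.242 to 0.283 leaving out 1 array. With the array number as a replicate block, which did not pair the samples, 1643 genes were called, 847 of clear signal, 41 and 18 of them at 2-fold. The causes of these shifts were not tested. The immediate early median of -0.089 ran from -0.134 (without S3) to -0.002 (without K3). For heat shock the median of -0.132 ran from -0.24 (without S2 and K1) to -0.078 (without K3). The matrix median of -0.029 changed sign, from -0.091 with the level at the overall median to 0.029 without K3. Of genes of clear signal, 409 had 1 set mean under the level, and 132 of these were called.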

Other observations

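Outside the report's rules, BCL2, an inhibitor of apoptosis, was higher in naive S (0.86, from 7.28 to 7.88 in naive S and 6.60 to 6.88 in naive K), as were the growth factor gene FGF2 (0.82), the aryl hydrocarbon receptor AHR (0.77), the replication kinase CDC7 (0.85), the histone chaperone HIRA (0.80) and MIR21 (0.82). The splicing kinase CLK1 (-0.85) and RSRC2 (-0.73) were higher in naive K. In each of these the 4 arrays of one set lay apart from the 4 of the other, and each was called in limma, but they were picked after their values were seen.

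Below clear signal, 23 more genes were called at 2-fold or more, from MIR130B (-1.95) to MIR1264 (1.66), and 17 of them are microRNA genes. For comparison, 1088 of the 14884 genes measured are microRNA genes, and 185 of these had clear signal. The 17 differed in level, from dim ones such as MIR95 (means of 3.89 in naive S and 2.47 in naive K) and MIR548G (3.33 and 2.33) to MIR130B (5.74 and 7.69). Whether microRNA genes were called more often than other dim genes was not tested. MIR518E rested on S2, which read 4.48 against 1.83 to 3.04 on the other naive S arrays. A further 7781 features of clear signal had no gene symbol here. Of these, 206 (2.65%) were called at 2-fold, 50 higher in naive S and 156 higher in naive K, from -2.84 to 2.00, against 0.368% of named genes of clear signal. What these features measure was not analysed here.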
